A study of Homo sapiens with 282 samples.

Results

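Blebbistatin was applied to OCI-LY3 cells, a human line established from diffuse large B cell lymphoma, at 100 uM or 10 uM for 6 h, and gene expression was compared with that of cells given the vehicle, DMSO at 1%, for the same time. The members are the arrays whose titles name Blebbistatin at either concentration and 6 h: 6 arrays (3 at 100 uM and 3 at 10 uM) of 94 at that time and of 282 in all. The comparison group is the 8 DMSO arrays of 6 h. Beside them stand 2 arrays of untreated cells (labelled Media), 3 of Monastrol 100 uM and 6 of Vincristine (0.01 and 0.005 uM, 3 each). The series exposed this line in culture plates to 14 compounds for 6, 12 or 24 h and profiled it on Affymetrix HT HG-U219 arrays. The labels name no vehicle for the Blebbistatin wells, and they do not say whether replicates were separate cultures, so p-values measure the spread between these arrays, which may be technical. Values are log2 levels, and a change is a difference of mean log2 levels ± its standard error, from limma fitted over all 94 arrays of 6 h. Each gene is represented by its probe set with the highest mean level, giving 18239 genes. A gene is called where its p, adjusted by Benjamini and Hochberg over all genes, is under 0.05.

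Blebbistatin blocks the ATPase of myosin II, the motor that pulls on actin filaments. Nonmuscle myosin II drives the contractile ring of dividing cells, cortical tension and the movement of lymphocytes, and it is held in check or switched on by kinases and phosphatases acting on its light chains. The main genes discussed here belong to a different layer of cell biology: interferon-stimulated genes, which encode antiviral proteins and sit downstream of interferon regulatory factors and STAT proteins; immediate early genes, which encode transcription factors induced quickly by many stimuli; and chemokine genes, which NF-kappaB and AP-1 are known to switch on.

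The 14 arrays had close upper quartiles of log2 levels. These were 8.24 to 8.26 at 100 uM, 8.20 to 8.23 at 10 uM and 8.22 to 8.32 in DMSO. None of the 94 arrays of 6 h had low signal. The 3' to 5' difference of ACTB was less even: 0.16 to 0.2 at 100 uM, 0.22 to 0.31 at 10 uM and 0.08 to 0.31 in DMSO. DMSO replicate 2 had 0.31, and the other DMSO arrays at most 0.15. The medians of all Blebbistatin arrays and of DMSO replicate 2 lay at or below those of the other DMSO arrays. The bearing of these differences on the calls was not tested. The labelled cell type was checked against marker genes. Of 8 measured B cell markers, 2 lay above 6.54, the median of the array medians: CD74 at 13.10 and PAX5 at 7.23 in DMSO. MS4A1 at 4.64 and CD79A at 5.02 were low. Of 8 markers of an activated B cell lymphoma, 5 lay above that median, among them IRF4 at 13.16, STAT3 at 11.10 and BATF at 9.09, and IL10 (4.44), IL16 (5.66) and CCL22 (6.28) lay below it. Of the markers of other cell types, 0 of 7 for myeloid, 0 of 6 for epithelial and 0 of 4 for red cells exceeded that median. CD5 (9.75) and CD4 (9.49) did so among 7 T cell markers, and THY1 (10.15) was one of 2 among 7 fibroblast markers. THY1 was 0.20 ± 0.04 higher in Blebbistatin (adjusted p = 0.00234), and the lowly measured CD3G, LYZ and ITGAM were called higher by 0.43, 0.31 and 0.48. The mean level of the myeloid markers ranged from 4.13 to 4.32 over the DMSO arrays, 4.19 to 4.30 at 100 uM and 4.31 to 4.49 at 10 uM. That of the T cell markers ranged from 6.19 to 6.26, 6.22 to 6.32 and 6.21 to 6.31, and that of the fibroblast markers from 5.50 to 5.70, 5.68 to 5.74 and 5.55 to 5.70. Their part in the results was not tested. In bulk RNA, fewer cells of a type and less RNA per cell cannot be told apart.

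Interferon response and immediate early genes rose at the higher dose. At 100 uM, 8 of 31 interferon response genes and 9 of 29 immediate early genes rose, IFIT2 and FOS among them, and the chemokine gene CXCL8 rose 1.55 ± 0.10. At 10 uM none of the genes that rose so was called against DMSO. In all, 472 genes were called at 100 uM against DMSO (304 higher, 1.67% of genes, and 168 lower, 0.921%; 2.59% in all) and 480 at 10 uM (333 higher, 1.83%, and 147 lower, 0.806%; 2.63% in all). The pooled comparison of 6 against 8 arrays called 1063 genes (687 higher, 3.77%, and 376 lower, 2.06%; 5.83% in all). Both doses were set against the same DMSO arrays, so their counts are not independent of each other. The direct test of 100 uM against 10 uM, which does not use DMSO, called 34 genes (30 higher at 100 uM, 0.164%, and 4 lower, 0.0219%; 0.186% in all).

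These changes were small, and those at 10 uM lay mostly among weakly measured genes. No gene moved by more than 1 on the log2 scale in the pooled comparison, and 3 did so at 100 uM, IFIT2, CXCL8 and IFIT3. Of the 687 pooled rises, 444 (64.6%) belonged to genes below the median level in DMSO, against 50.1% of all genes. Among the 333 rises at 10 uM, 252 (75.7%) were that low, against 134 of 304 (44.1%) at 100 uM. Falls came from better measured genes: 78 of 376 pooled falls (20.7%) and 19 of 168 falls at 100 uM (11.3%) were below that level. The counts also moved with single arrays. The pooled count became 545 without 10 uM replicate 2, 683 without 100 uM replicate 3, 700 without DMSO replicate 6 and 1905 without DMSO replicate 2. The 10 uM count fell to 31 without its replicate 2 and to 159 without its replicate 3, and it rose to 1196 without DMSO replicate 2; leaving out DMSO replicate 3, 5, 6, 7 or 8 gave 246 to 298. The 100 uM count was 195 to 203 without any 1 of its own 3 arrays and 716 without DMSO replicate 2. The plot of change against level shows where the called genes lie.

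**Figure D1:**
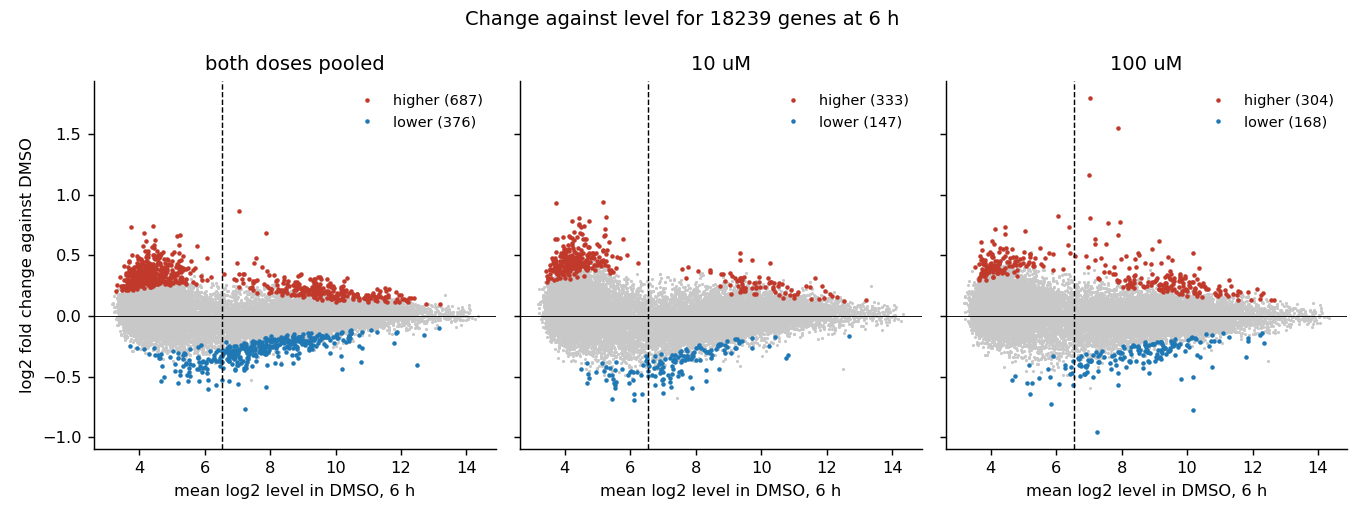
Each point is 1 of 18239 genes, for both doses pooled, 10 uM and 100 uM. The x axis is its mean log2 level in 8 DMSO arrays, and the y axis its log2 fold change against DMSO at 6 h. Red points were called higher and blue points lower. The dashed line marks 6.54, the median over the arrays of 6 h of their median gene level. Red points crowd to the left of the line at 10 uM (252 of 333), while at 100 uM a few well measured genes stand above 1.

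No gene of the target family passed the test at 6 h. Of 20 measured genes for myosin II and its regulators, 0 were called by limma in the pooled comparison, at 100 uM or at 10 uM. At an unadjusted p under 0.05 by limma there were 6, 2 and 3. Over all genes, 5.83%, 2.59% and 2.63% were called in these comparisons, so 0 of 20 lies near those shares. MYH9, a nonmuscle heavy chain, measured 12.31, 12.25 and 12.26 at 100 uM and 12.21, 12.30 and 12.25 at 10 uM, against 12.04 to 12.26 with a median of 12.21 in DMSO. The pooled difference was 0.08 ± 0.04 (adjusted p = 0.155). MYH10, another nonmuscle heavy chain, measured 11.68, 11.67 and 11.75 at 100 uM and 11.66, 11.74 and 11.71 at 10 uM, against 11.51 to 11.77 in DMSO (0.09 ± 0.04, adjusted p = 0.134). The arrays of both genes overlapped with DMSO, and with the mean of all probe sets of the gene the difference changed sign to -0.05 for MYH9 and -0.13 for MYH10. MYH14, the remaining nonmuscle heavy chain, lay near the bottom of the scale, at 3.95 to 4.34 in DMSO and 4.29 to 4.41 over the 6 Blebbistatin arrays. CDC42BPA, a kinase that acts on myosin light chains, differed by -0.53 ± 0.18 (adjusted p = 0.0599).

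Lists of genes linked to actin were read against the pooled background of 3.77% higher and 2.06% lower. Among 21 targets of SRF and its actin-sensing cofactors MRTF, CNN2, an actin-binding calponin, was called higher by 0.18 ± 0.05 and FHL2 by 0.31 ± 0.08 in the pooled comparison. CNN2 measured 10.07, 10.17 and 10.06 at 100 uM, all above the DMSO range of 9.71 to 9.97, and 9.91, 9.90 and 9.87 at 10 uM, within it. With the mean of its probe sets the CNN2 difference was -0.02, and FHL2 missed the threshold without 10 uM replicate 2 (0.29, adjusted p = 0.0507) or DMSO replicate 8 (0.27, adjusted p = 0.0521). In untreated medium, where 25.5% of all genes were called against the same DMSO arrays (11.7% higher and 13.8% lower), 10 of these 21 genes were higher and CNN2 stood 0.93 above DMSO. Of 26 actin assembly genes, DOCK2, a Rac activator of lymphocytes, was called higher by 0.18 and WIPF1, a partner of the Wiskott-Aldrich protein, lower (-0.43). Of 14 cytokinesis genes, ANLN, the contractile ring scaffold, was higher by 0.23 and INCENP, a subunit of the Aurora B complex, lower (-0.44). ANLN lost its call without any 1 of 9 arrays (largest adjusted p = 0.2, without 10 uM replicate 2), and DOCK2 without 10 uM replicate 3 (0.16, adjusted p = 0.0562). With the mean of all probe sets DOCK2 (0.08), WIPF1 (-0.09) and ANLN (0.07) were not called. Of 21 adhesion and migration genes, 2 were called higher, CXCR4 and the integrin subunit ITGB1 (0.14), and 1 lower, the integrin subunit ITGB7 (-0.32, adjusted p = 0.0414). With the mean of all probe sets ITGB1 differed by -0.10 and ITGB7 by -0.11, neither called, and ITGB7 lost its call in 13 of 19 other settings. The chemokine receptor CXCR4 measured 10.41, 10.48 and 10.48 at 100 uM and 10.40, 10.29 and 10.30 at 10 uM, against 10.11 to 10.25 in DMSO. All 6 CXCR4 values lay above all 8 DMSO values, and the pooled rise was 0.22 ± 0.04 (adjusted p = 0.000412).

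The 34 genes that differed between doses include the changes above 1 named before. These genes were chosen by this contrast, so their separation is a description: for all 34 the 3 arrays of 100 uM and the 3 of 10 uM did not overlap, as was the case for 7.74% of all genes in the higher and 5.87% in the lower direction. Of the 34, 29 were above the median level in DMSO. The call of 12 of the 34 held in each alternative fit that tested the gene and with each of the 6 arrays left out in turn (OASL, below the median level, was not in the fit of genes above it): IFIT2, CXCL8, IFIT3, NR4A2, OASL, NR4A3, CCL1, FOS, ISG20, SH3RF2, KLF6 and EPSTI1. The other 22 lost it in at least 1. The number of calls was 19 to 21 without any 1 of the 100 uM arrays and 57 without 10 uM replicate 1.

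Of the 34 genes, 27 had an entry in the RefSeq promoter table (GRCh38.p14), 23 of them higher at 100 uM, and 6 windows of 250 bases upstream of the start are shown because their genes carry the dose result and hold a short motif. The letters searched, on both strands, were GAAA followed by any 2 bases and GAAA again, the core of the element bound by interferon regulatory factors (ISRE), and TGACTCA, the AP-1 element bound by FOS and JUN proteins. Matches are in capitals, in the orientation of the gene, and none overlaps a match of the other motif. IFIT3 (chr10:89327747-89327996, plus strand) has 2 ISRE cores in this window and 2 more in a further window of the gene. IFIH1 (chr2:162318685-162318934, minus strand) has 3, of which 2 overlap each other. CXCL10 (chr4:76023498-76023747, minus), EPSTI1 (chr13:42992242-42992491, minus) and ISG20 (chr15:88638766-88639015, plus) have 1 each, and ISG20 also has the AP-1 letters, as does CXCL8 (chr4:73740319-73740568, plus).
IFIT3: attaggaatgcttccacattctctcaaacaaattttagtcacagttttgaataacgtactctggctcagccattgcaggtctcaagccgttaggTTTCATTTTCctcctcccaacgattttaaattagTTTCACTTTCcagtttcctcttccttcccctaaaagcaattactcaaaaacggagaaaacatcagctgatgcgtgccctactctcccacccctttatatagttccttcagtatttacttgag
IFIH1: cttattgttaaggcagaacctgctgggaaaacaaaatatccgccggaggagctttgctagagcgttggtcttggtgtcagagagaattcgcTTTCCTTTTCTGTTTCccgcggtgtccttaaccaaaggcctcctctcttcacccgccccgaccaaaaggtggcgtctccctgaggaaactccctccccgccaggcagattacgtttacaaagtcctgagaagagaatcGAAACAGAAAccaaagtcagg
CXCL10: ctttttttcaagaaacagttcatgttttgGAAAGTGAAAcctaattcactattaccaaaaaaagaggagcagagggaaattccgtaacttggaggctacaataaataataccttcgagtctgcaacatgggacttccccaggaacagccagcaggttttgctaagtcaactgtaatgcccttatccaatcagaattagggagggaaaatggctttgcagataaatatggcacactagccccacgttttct
EPSTI1: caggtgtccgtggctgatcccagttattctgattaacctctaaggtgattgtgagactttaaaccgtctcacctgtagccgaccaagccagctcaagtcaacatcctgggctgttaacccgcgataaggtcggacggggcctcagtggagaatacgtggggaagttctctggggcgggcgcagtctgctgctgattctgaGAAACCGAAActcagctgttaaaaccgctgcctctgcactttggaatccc
ISG20: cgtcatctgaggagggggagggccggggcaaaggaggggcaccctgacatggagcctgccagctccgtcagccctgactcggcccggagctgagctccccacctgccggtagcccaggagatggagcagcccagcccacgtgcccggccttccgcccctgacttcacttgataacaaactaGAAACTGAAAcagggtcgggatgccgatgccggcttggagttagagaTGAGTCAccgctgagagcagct
CXCL8: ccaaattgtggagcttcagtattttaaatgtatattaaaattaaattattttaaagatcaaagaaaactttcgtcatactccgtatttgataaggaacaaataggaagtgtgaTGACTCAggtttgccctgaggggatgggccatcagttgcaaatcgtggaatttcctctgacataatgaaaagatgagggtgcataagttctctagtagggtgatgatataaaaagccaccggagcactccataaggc

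The ISRE core stood in 6 of the 23 higher genes with a window (26.1%), EGR4 being the one not shown, against 1014 of 27305 genes in the table (3.71%). TGACTCA stood in 2 of 23 (8.7%) against 1416 of 27305 (5.19%). A match is a description of letters and not a site of binding, and its absence from a window says nothing of the factor. IFIT2, NR4A2 and OASL had no entry.

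Interferon-stimulated genes were among those that differed between doses. IFIT2, which encodes an antiviral RNA-binding protein, measured 8.93, 8.97 and 8.61 at 100 uM and 7.07, 6.78 and 7.08 at 10 uM, against a lowest, median and highest DMSO array of 6.77, 6.96 and 7.41. The 100 uM arrays lay far above all others, and those of 10 uM lay inside the DMSO range. The change was 1.80 ± 0.12 at 100 uM (adjusted p = 9.54e-22) and -0.06 ± 0.12 at 10 uM, and the difference between doses was 1.86 ± 0.14 (adjusted p = 8.08e-18). A second IFIT2 probe set gave a dose difference of 1.91. Its neighbour IFIT3, a partner of other IFIT proteins, measured 8.32, 8.12 and 8.03 at 100 uM, 6.87, 6.57 and 6.69 at 10 uM, and 6.41, 7.01 and 7.51 as lowest, median and highest in DMSO. Again only the 100 uM arrays left the DMSO range, by 1.16 ± 0.14 (adjusted p = 2.25e-09), and the doses differed by 1.45 ± 0.16. In untreated medium both genes were below DMSO, IFIT2 at 4.93 and 4.83 (-2.16) and IFIT3 at 6.01 and 6.31 (-0.84). Other dose genes went the other way in medium. Of the 30 genes higher at 100 uM than at 10 uM, 14 were called higher and 9 lower in medium than in DMSO. Over all genes these shares were 11.7% and 13.8%.

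Other members of the list rose with them. IFIH1, the sensor MDA5 for long double-stranded RNA, measured 8.26, 8.37 and 8.39 at 100 uM and 7.64, 7.90 and 7.77 at 10 uM, against 7.30, 7.56 and 7.94 in DMSO. It rose 0.77 ± 0.11 at 100 uM (adjusted p = 7.98e-07), with no overlap. OASL, an antiviral member of the oligoadenylate synthetase family, rose 0.74 ± 0.12 (7.16, 7.29 and 6.93 against 6.03 to 6.64), and ISG20, an exonuclease of single-stranded RNA, rose 0.50 ± 0.10. EPSTI1, an interferon-responsive gene, measured 9.07, 8.99 and 9.04 at 100 uM and 8.59, 8.64 and 8.60 at 10 uM, against 8.35 to 8.70 in DMSO, and rose 0.50 ± 0.06. The chemokine CXCL10, which attracts activated T cells, measured 6.82, 6.94 and 6.88 at 100 uM and 5.84, 6.36 and 6.38 at 10 uM, against 5.60 to 6.41 in DMSO, a rise of 0.82 ± 0.13. In untreated medium CXCL10 stood higher still, at 8.74 and 9.32. ISG15, a ubiquitin-like modifier, rose 0.26 ± 0.07 at 100 uM (adjusted p = 0.0193). Together 8 of 31 measured interferon genes were called higher at 100 uM and 0 lower, against 1.67% and 0.921% of all genes; the count was 7 or 8 with any 1 array left out, and the list's median change was 0.10 against 0.01 over all genes. Most of the list did not pass: IFIT1 measured 5.24, 4.97 and 4.91 at 100 uM against 4.56 to 5.07 in DMSO (0.30 ± 0.13, adjusted p = 0.243), and MX1 differed by 0.11 ± 0.12. IRF7, a regulator of interferon production, differed by -0.15 ± 0.09. The dose difference of IFIH1 lost its call without any 1 of 5 arrays (0.51 to 0.61, adjusted p up to 0.187), and that of CXCL10 without any 1 of 4 (0.51 without 10 uM replicate 1, adjusted p = 0.214). IFIT3, OASL and CCL3 are read by probe sets whose names mark possible matches to related transcripts.

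Some genes of cytokines and chemokines also rose at 100 uM. CXCL8, the neutrophil chemokine interleukin 8, measured 9.70, 9.29 and 9.29 at 100 uM and 7.78, 7.70 and 7.64 at 10 uM, against 7.61, 7.90 and 8.13 as lowest, median and highest in DMSO. The 100 uM arrays stood apart and those of 10 uM sat in the lower part of the DMSO range. The doses differed by 1.72 ± 0.12 (adjusted p = 2.56e-19), and the 2 other CXCL8 probe sets gave 1.00 and 1.40. Medium, at 8.84 and 8.62, lay between. TNF, the inflammatory cytokine, measured 7.93, 7.73 and 7.75 at 100 uM and 7.30, 7.13 and 7.28 at 10 uM, against 7.05 to 7.32 in DMSO, and rose 0.63 ± 0.11 at 100 uM. CCL5 and CCL3, chemokines for T cells and monocytes, rose 0.49 ± 0.09 and 0.29 ± 0.08, and BCL2A1, an inhibitor of apoptosis, rose 0.60 ± 0.10 (8.05, 8.28 and 7.99 against 7.38 to 7.61). The 10 uM arrays of CCL3 read 9.67, 9.46 and 9.60, around the lowest DMSO value of 9.60.

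Of 28 NF-kappaB targets, 4 were called higher at 100 uM (BCL2A1, TNF, CCL3 and TNFAIP2) and 0 lower, against 1.67% and 0.921% of all genes. The 4 fell to 2 without 100 uM replicate 1 or 3. In the direct test of 100 uM against 10 uM, 2 were called higher, against 0.164% of all genes. At 10 uM, where 1.83% of all genes were called higher, the call was IL10, at 0.47 ± 0.11. NFKBIA, the inhibitor induced by NF-kappaB, read 13.05, 13.21 and 13.04 at 100 uM within a DMSO range of 13.03 to 13.22. IL6 read 6.59, 6.56 and 6.58 against 6.30 to 6.69. TNFAIP2 was 0.17 higher in the pooled comparison, but -0.08 and not called with the mean of all probe sets. Of its 4 other probe sets there, 1 was higher and 0 were called higher (-0.357 to 0.004). The CCL3 call at 100 uM was lost without any 1 of the 3 treated arrays (adjusted p up to 0.135) or DMSO replicate 8 (0.0518). The dose difference of TNF was 0.57 ± 0.13 and that of CCL5 0.54 ± 0.11. TNF lost its dose call without any 1 of 5 arrays (0.50 to 0.60, adjusted p up to 0.294), and CCL5 without 100 uM replicate 2 or 10 uM replicate 1 (both 0.49, adjusted p = 0.119 and 0.0628).

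**Figure D2:**
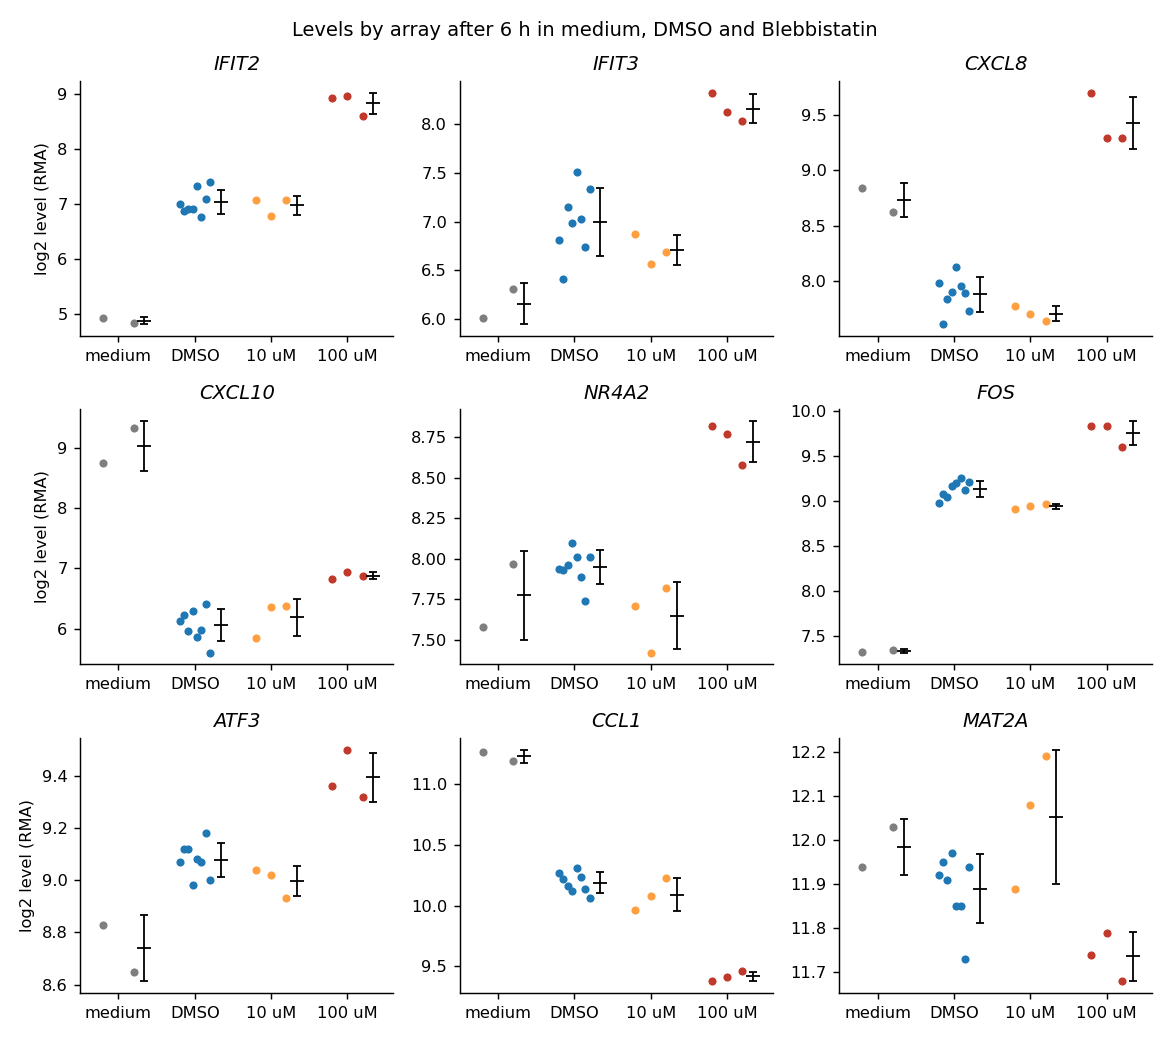
Each point is the log2 level (RMA) of 1 array after 6 h in medium (2 arrays), DMSO (8), Blebbistatin 10 uM (3) or 100 uM (3) for 9 genes, and the bar beside each group is the mean ± SD. For IFIT2 and CXCL8 the red points of 100 uM lie above every other point, with IFIT2 at 8.61 to 8.97, while the orange points of 10 uM lie among those of DMSO.

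Immediate early genes formed the next group. FOS, a subunit of AP-1, measured 9.83, 9.83 and 9.60 at 100 uM and 8.91, 8.94 and 8.97 at 10 uM, against 8.98, 9.15 and 9.25 in DMSO. All 100 uM arrays lay above DMSO and all 10 uM arrays just below its lowest value. The change was 0.62 ± 0.07 at 100 uM (adjusted p = 2.49e-09) and -0.19 ± 0.07 at 10 uM (adjusted p = 0.146), with a dose difference of 0.81 ± 0.09. The orphan nuclear receptor NR4A2 measured 8.82, 8.77 and 8.58 at 100 uM and 7.71, 7.42 and 7.82 at 10 uM, against 7.74, 7.95 and 8.10 in DMSO, and rose 0.78 ± 0.11. Its relative NR4A3 rose 0.81 ± 0.11, from a DMSO range of 6.62 to 7.40 to 8.01, 7.61 and 7.93. For both receptors the 100 uM arrays lay above the DMSO range. Those of 10 uM lay inside it for NR4A3, and 2 of 3 lay below it for NR4A2. Another member of the family, NR4A1, already stood at 12.32 to 12.58 in DMSO and read 12.37, 12.29 and 12.28 at 100 uM, a difference of -0.13 ± 0.07.

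Of 29 immediate early genes, 9 were called higher at 100 uM (FOS, FOSB, JUN, EGR3, EGR4, ATF3, KLF6, NR4A2 and NR4A3) and 1 lower (MYC). The shares over all genes were 1.67% and 0.921%. KLF6, a zinc finger factor, measured 10.64, 10.83 and 10.62 against 10.09 to 10.34 in DMSO, and rose 0.52 ± 0.07. JUN rose 0.34 ± 0.07 and ATF3 0.32 ± 0.06, while EGR1 read 13.17, 13.23 and 13.16 within a DMSO range of 13.11 to 13.30. The 9 were 7 with any 1 of the 100 uM arrays left out and 5 with the mean of all probe sets: EGR3 then differed by 0.19 (adjusted p = 0.0687) rather than 0.67, FOSB by 0.20, EGR4 by 0.25 and ATF3 by 0.12, and none of those 4 was called. Without 100 uM replicate 2, ATF3 missed the threshold (0.26, adjusted p = 0.0522). EGR4 did so without 100 uM replicate 1 or 3 (0.42 and 0.45), and so did FOSB (0.49 and 0.52). At 10 uM, 2 members were called, both lower, against 0.806% of all genes. They were DUSP1, a MAP kinase phosphatase (-0.32 ± 0.09), and the AP-1 subunit JUND (-0.32 ± 0.10). In medium, 13 of these 29 were lower than in DMSO and 5 higher, against 13.8% and 11.7% of all genes. FOS was among the lower, at 7.32 and 7.35 (-1.80).

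Further genes of the dose set have roles in lymphocytes or metabolism. STAT4, the transcription factor activated by interleukin 12, measured 9.43, 9.50 and 9.53 at 100 uM and 9.05, 9.13 and 9.08 at 10 uM, against 8.88 to 8.99 in DMSO. All 6 treated arrays exceeded all 8 DMSO arrays, and all 3 of 100 uM exceeded all 3 of 10 uM. STAT4 rose 0.55 ± 0.07 at 100 uM (adjusted p = 6.29e-09), with 0.15 ± 0.07 at 10 uM (adjusted p = 0.227), and a second probe set gave a pooled change of 0.39. Its dose difference, 0.40 ± 0.08, missed the threshold without 100 uM replicate 3 (0.38, adjusted p = 0.0589). SH3RF2, a ubiquitin ligase of the POSH family, read 9.01, 9.01 and 9.02 at 100 uM against 8.14 to 8.71 in DMSO, and ZBTB32, a zinc finger repressor, rose 0.59 ± 0.13. RHOG, a small GTPase of the Rac family, rose 0.22 ± 0.03 from a DMSO range of 12.04 to 12.21 to 12.34, 12.35 and 12.42. The dose calls of ZBTB32 and RHOG were lost without any 1 of 5 and 6 arrays.

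CCL1 had the largest fall with dose. It encodes the ligand of the chemokine receptor CCR8 and measured 9.38, 9.41 and 9.46 at 100 uM and 9.96, 10.08 and 10.23 at 10 uM, against 10.06, 10.19 and 10.31 in DMSO. All 3 arrays of 100 uM and 1 of 3 of 10 uM lay below the DMSO range. The change at 100 uM was -0.77 ± 0.07 (adjusted p = 3.79e-15), and the doses differed by -0.67 ± 0.08. Medium stood on the other side of DMSO, at 11.27 and 11.19. The remaining 3 that were lower at 100 uM than at 10 uM were MAT2A, which makes S-adenosylmethionine (-0.32 ± 0.06), the sterol synthesis enzyme MSMO1 (-0.33 ± 0.08) and BORCS8, of the lysosome-positioning complex BORC (-0.37 ± 0.09). MAT2A read 11.74, 11.79 and 11.68 at 100 uM and 11.89, 12.08 and 12.19 at 10 uM, around a DMSO range of 11.73 to 11.97, and with this probe set neither dose was called against DMSO. The 5 other MAT2A probe sets were all lower at 100 uM than in DMSO (-0.74 to -0.48), and 4 of them were called. None of these 3 kept its dose call with the mean of all probe sets (-0.23 for MAT2A, -0.23 for MSMO1 and -0.10 for BORCS8) or with each array left out. Without 10 uM replicate 3, MAT2A differed by -0.25 (adjusted p = 0.237), MSMO1 by -0.27 (0.499) and BORCS8 by -0.36 (0.243).

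The chosen pathway lists were then read at each dose. Of all genes, 1.67% were called higher and 0.921% lower at 100 uM, and 1.83% and 0.806% at 10 uM. ATF4, the factor of the amino acid and integrated stress response, and its targets had 8 of 24 members called higher at 100 uM and 0 at 10 uM, where 3 were under an unadjusted p of 0.05 by limma. The called genes were ATF4 (0.13), ATF3, DDIT4, PSAT1 (0.27), SESN2 (0.22), SLC38A2 (0.18), CEBPG (0.24) and MTHFD2 (0.17), and the list's median change was 0.16 against 0.01 over all genes. PSAT1, an enzyme of serine synthesis, measured 10.07, 10.22 and 10.17 at 100 uM and 9.93, 10.21 and 10.10 at 10 uM, against 9.73 to 10.03 in DMSO. ASNS, asparagine synthetase, read 11.47, 11.50 and 11.54 against 11.36 to 11.49 (0.08 ± 0.04, adjusted p = 0.237). The 8 became 1 without 100 uM replicate 2, 3 without replicate 1 or 3, 4 without DMSO replicate 3, 5 without DMSO replicate 5 or 8, and 4 with the mean of all probe sets.

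MYC and genes of ribosome biogenesis moved the other way. MYC, the growth regulator, measured 9.65, 9.76 and 9.62 at 100 uM and 10.01, 10.04 and 10.05 at 10 uM, against 10.01, 10.22 and 10.29 in DMSO. The 100 uM arrays lay below all DMSO arrays and those of 10 uM at its lower edge. MYC fell by 0.51 ± 0.07 at 100 uM (adjusted p = 8.22e-07), and its difference between doses was -0.36 ± 0.09 (adjusted p = 0.0511). Of 28 members, 5 were lower at 100 uM and 3 at 10 uM, against 0.921% and 0.806% of all genes, and 0 were higher at either. NOP16, a nucleolar protein, changed by -0.52 ± 0.09 and PPAN, a factor of large subunit assembly, by -0.38 ± 0.08 at 100 uM. POLR1C, a subunit shared by RNA polymerases I and III, changed by -0.31 ± 0.06 at 100 uM and by -0.19 ± 0.06 at 10 uM, and ODC1, the first enzyme of polyamine synthesis, by -0.21 ± 0.04 at 100 uM. The count at 100 uM was 4 to 7 with any 1 array left out. In medium 14 of the 28 were above DMSO and 4 below, against 11.7% and 13.8% of all genes, with MYC 0.75 higher.

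**Figure D3:**
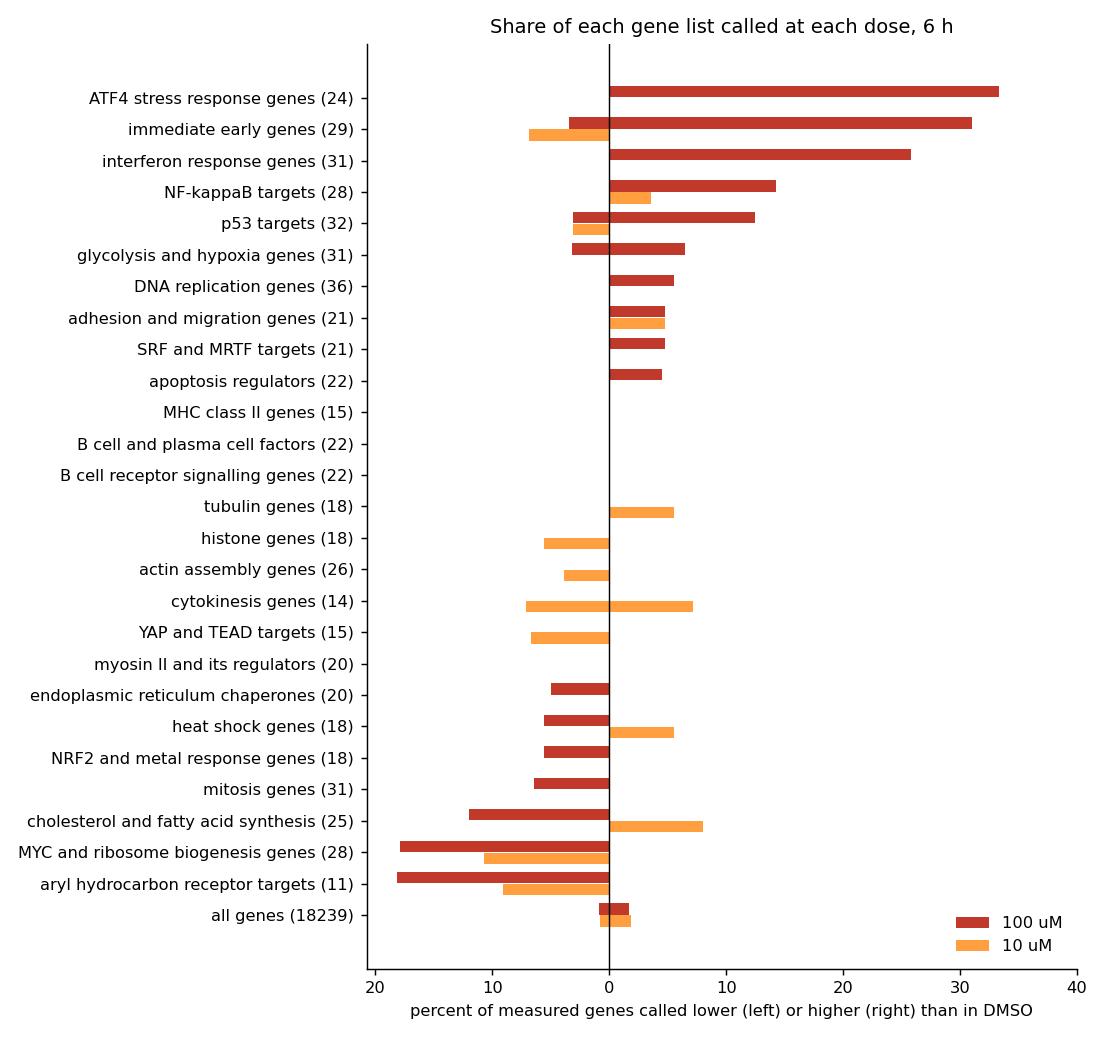
Bars give, for each of 26 gene lists (measured genes in brackets) and for all genes, the percent of measured genes called higher (right) or lower (left) than in DMSO at 6 h, in red for 100 uM and orange for 10 uM. ATF4 response, immediate early and interferon genes have the longest bars to the right at 100 uM, with 8 of 24, 9 of 29 and 8 of 31 genes, and no orange bar to the right.

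Some cholesterol genes were called lower at 100 uM and different ones higher at 10 uM, where 0.921% and 1.83% of all genes were so called. At 100 uM, 3 of 25 were lower: HMGCS1, which makes the precursor of mevalonate (-0.34 ± 0.06, adjusted p = 1.58e-05), NSDHL (-0.25) and DHCR7 (-0.23). HMGCS1 measured 11.41, 11.53 and 11.40 at 100 uM and 11.59, 11.78 and 11.64 at 10 uM, against 11.65 to 11.90 in DMSO. At 10 uM, 2 were higher, the sterol demethylase CYP51A1 (0.28 ± 0.08) and INSIG1, the anchor of the SREBP complex (0.24 ± 0.07). These 2 calls were not followed with single arrays left out, and the 10 uM count over all genes was 31 without replicate 2 of that dose. The direct test between doses called 1 of the 25 lower, MSMO1, against 0.0219% of all genes. MSMO1 lost that call in 7 of 13 other settings. For INSIG1 the direct limma test gave -0.31 ± 0.08 (adjusted p = 0.0582). The 3 falls were 1 without 100 uM replicate 1 or 2. Of 11 targets of the aryl hydrocarbon receptor, the 2 called in the pooled comparison were both lower, against 2.06% of all genes. CYP1B1, a monooxygenase and classical target of that receptor, measured 10.32, 10.48 and 10.24 at 100 uM and 10.39, 10.26 and 10.59 at 10 uM, against 10.51, 10.76 and 11.02 in DMSO. The doses overlapped here, with 5 of 6 arrays below the DMSO range, and the pooled change was -0.38 ± 0.07 (adjusted p = 0.000209), the difference between doses being -0.07 ± 0.10. AHRR, the repressor of the receptor, changed by -0.25 ± 0.08 and lost its call without any 1 of 6 arrays (-0.22 without DMSO replicate 5, adjusted p = 0.0917). CYP1A1 was low throughout, at 3.86 to 4.15 under Blebbistatin and 4.00 to 4.51 in DMSO.

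The DNA damage and cell cycle lists were read in the same way. Of 32 p53 targets, 4 were higher at 100 uM (12.5%, against 1.67% of all genes), TNFRSF10B, SESN2, DDB2 and TIGAR, by 0.17 to 0.24. PLK2 was lower, at 8.82 in each of the 3 arrays against 9.06 to 9.23 in DMSO (-0.34 ± 0.06). CDKN1A, the cell cycle inhibitor, read 11.83, 11.85 and 11.86 within a DMSO range of 11.78 to 11.96, and MDM2 differed by -0.13 ± 0.10. The 4 became 1 without 100 uM replicate 1 or 3 and 2 without replicate 2. TNFRSF10B was 0.12 higher in the pooled comparison, but -0.07 and not called with the mean of all probe sets. Its 2 other probe sets were lower there (-0.23 and -0.084). Of 36 DNA replication genes, 6 were higher in the pooled comparison (16.7%, against 3.77% of all genes) and 0 lower, among them CDT1, which licenses origins, at 9.74, 9.71 and 9.70 at 100 uM and 9.58, 9.53 and 9.44 at 10 uM against 9.33 to 9.49 (0.23 ± 0.06). MCM4 of the replicative helicase rose 0.19 ± 0.05, MCM10 0.18 ± 0.05 and the clamp loader subunit RFC4 0.16 ± 0.05. The 6 were 2 without 10 uM replicate 2, 3 without 100 uM replicate 3 and 0 with the mean of all probe sets. Of 31 mitosis genes, 0 were called in the pooled comparison (6 at an unadjusted p under 0.05 by limma), and CCNB2 (-0.16) and CENPE (-0.22) were lower at 100 uM. The 2 became 0 without any 1 of the 3 treated arrays or DMSO replicate 6 or 7, and 1 without DMSO replicate 3, 5 or 8.

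Lists of stress and B cell genes were read in the pooled comparison, where 3.77% of all genes were higher and 2.06% lower. HSPA1A, the inducible HSP70, was 0.18 ± 0.04 higher, 1 of 18 heat shock genes. NRF2 targets (0 of 18) and endoplasmic reticulum chaperones (0 of 20) had no call, with 2 and 3 at an unadjusted p under 0.05 by limma. At 100 uM alone, NQO1 (-0.19) and HERPUD1 (-0.22) were lower. Of 22 factors of B and plasma cells, 2 were lower, BCL6 (-0.21 ± 0.06) and IRF4 (-0.10 ± 0.03), and 1 higher, TCF3 (0.16). IRF4, the factor on which lymphomas of this kind depend, measured 13.02 to 13.08 over the 6 Blebbistatin arrays against 13.06 to 13.20 in DMSO. Of 22 apoptosis regulators, 1 was higher, BCL2A1 (0.44 ± 0.08), and 2 were lower, BAK1 (-0.28 ± 0.09) and BCL2L11 (-0.14 ± 0.04), which promote cell death. BAK1 lost its call in 15 of 21 other settings and BCL2L11 in 13 of 21. All 13 other BCL2L11 probe sets were lower (-0.765 to -0.014), with 6 called. Of 4 others for BAK1, 3 were lower and 0 were called. BCL6 lost its call without 100 uM replicate 2 (-0.18, adjusted p = 0.0625) or DMSO replicate 5 (-0.17, 0.0527), and TCF3 without 100 uM replicate 3 (0.14, 0.0567). The 4 other BCL6 probe sets were all called lower (-0.45 to -0.385), as was the other IRF4 probe set (-0.431). Of 3 others for TCF3, 2 were higher and 1 was called.

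A second group of genes lay outside the DMSO range in all 6 Blebbistatin arrays. It was chosen by the pooled comparison and not by a call at each dose. Among all pooled calls, 48 of 687 rises and 30 of 376 falls were called at both doses. In the pooled comparison 43 genes were called higher with all 6 treated arrays above all 8 DMSO arrays (0.236% of genes) and 43 lower with all 6 below (0.236%). DHRS2, a mitochondrial reductase, had the largest fall: 6.32, 6.11 and 6.44 at 100 uM and 6.87, 6.59 and 6.53 at 10 uM, against 6.89, 7.25 and 7.69 in DMSO. It changed by -0.77 ± 0.09 (adjusted p = 1.46e-08), and medium was lower still, at 5.52 and 5.48. PGBD3, derived from a piggyBac transposase, was below DMSO at both doses, reading 7.39, 7.27 and 7.29 and then 7.13, 7.33 and 7.42, against 7.66, 7.83 and 8.28 (-0.58 ± 0.07). Those 2 genes, with medium at -1.75 and -0.93, were below DMSO in untreated cells as well, against the same DMSO arrays.

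Among the other falls, RPS6KA5, the kinase MSK1, measured 7.47, 7.60 and 7.23 at 100 uM and 7.61, 7.51 and 7.60 at 10 uM against 7.77 to 8.04 (-0.40 ± 0.07), with medium also lower (-0.82). The adhesion receptor ADGRE2 (-0.39 ± 0.08) and the serotonin receptor HTR2B (-0.55 ± 0.10) were below DMSO under Blebbistatin and above it in medium, by 0.67 and 0.60. LRIG2 (-0.53), the helicase DHX34 (-0.53), the bicarbonate transporter SLC4A8 (-0.53), the kinase TAOK1 (-0.53), NR2F1 (-0.44), ZNF837 (-0.41) and the corepressor TLE4 (-0.39) completed the 12 largest falls among genes without overlap. TAOK1 lost its call without 100 uM replicate 1 or 10 uM replicate 1 or 2 (-0.50, -0.47 and -0.51), and SLC4A8 with the mean of its probe sets (-0.14, adjusted p = 0.0539). The other probe sets of TLE4 (-0.075 and 0.003) and DHX34 (-0.29 and 0.016) were not called. Of the other probe sets, 1 of 3 for RPS6KA5 and 3 of 6 for ADGRE2 were called lower. Of the 12 largest rises among genes without overlap, STAT4 and LHFPL3 alone were above the median level in DMSO. The others included PPFIA4 (0.47 ± 0.09), CNTD1 (0.45 ± 0.09), MACC1 (0.43 ± 0.08), PMEL (0.35 ± 0.09) and the repressor KLF3 (0.34 ± 0.08). MACC1 for example read 4.62 to 4.92 under Blebbistatin and 4.05 to 4.45 in DMSO. With the mean of all probe sets, PPFIA4 differed by 0.13 (adjusted p = 0.163) and LHFPL3 by 0.14 (0.162). With the replicate number as a block, STAT4 alone of the 12 rises kept its call. Of the 12 falls, DHRS2, PGBD3 and LRIG2 alone did so. DMSO replicates 4 to 8 share their number with no other array, so with this block the comparison rests on DMSO replicates 1 to 3.

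Across the 29 groups of 6 h, Blebbistatin 100 uM ranked 3, 4, 6 and 22 from the top for IFIT2, CXCL8, FOS and CCL1. For IFIT2 its mean of 8.84 ± 0.20 (SD, n = 3) ranked 3 of 29, below Rapamycin 22 uM (9.87 ± 0.15) and 13.8 uM (9.05 ± 0.33) and above Cycloheximide 5 uM (8.63 ± 0.11). The SDs of the nearest neighbours overlapped with it. DMSO ranked 19 (7.04 ± 0.23, n = 8), Blebbistatin 10 uM 23 (6.98 ± 0.17) and medium last (4.88 ± 0.07, n = 2). For CXCL8 it ranked 4 (9.43 ± 0.24), after Rapamycin 22 uM (10.28 ± 0.05) and Trichostatin A at 0.114 uM (9.91 ± 0.07) and 0.143 uM (9.90 ± 0.08), and above Rapamycin 13.8 uM (9.34 ± 0.17), from which it differed by less than 1 SD. For FOS it ranked 6 (9.75 ± 0.13), within 1 SD of Cycloheximide 5 uM (9.74 ± 0.06) and below Rapamycin 13.8 uM (10.16 ± 0.15), with Camptothecin 0.31 uM first (10.71 ± 0.05). For CCL1 it ranked 22 of 29 (9.42 ± 0.04), between Monastrol 100 uM (9.61 ± 0.12) and H-7 Dihydrochloride 12.4 uM (9.37 ± 0.13), while medium was first (11.23 ± 0.06). The means of DMSO and 10 uM for CCL1 were 10.19 ± 0.08 and 10.09 ± 0.14.

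**Figure D4:**
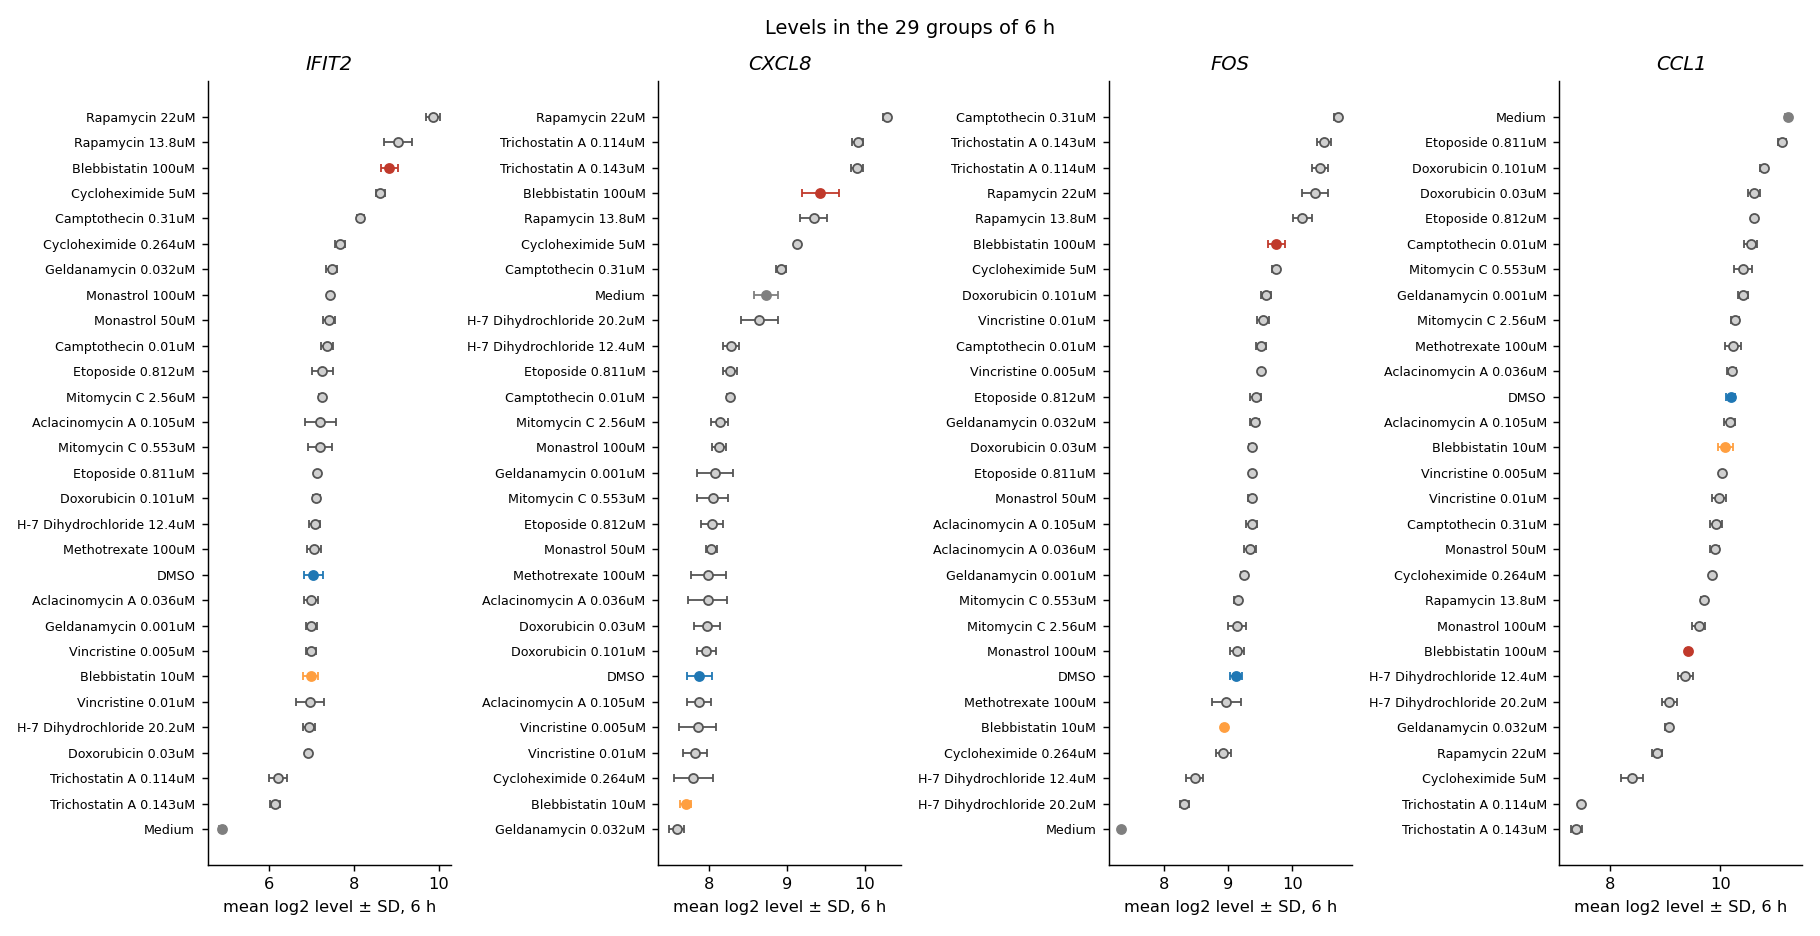
Points give the mean log2 level ± SD of IFIT2, CXCL8, FOS and CCL1 in each of the 29 groups of 6 h, ordered by level, with Blebbistatin 100 uM in red, 10 uM in orange, DMSO in blue and medium in grey. The red point ranks 3, 4 and 6 from the top for IFIT2, CXCL8 and FOS, and lies far below the blue point for CCL1.

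Monastrol and Vincristine, which act on the mitotic motor KIF11 and on tubulin, give a comparison with other disruptors of the cytoskeleton. Against Monastrol 100 uM, pooled Blebbistatin differed in 3144 genes (1616 higher, 8.86%, and 1528 lower, 8.38%; 17.2% in all); the count was 1888 to 2032 without any 1 of the Monastrol arrays. Against pooled Vincristine it differed in 2186 (1367 higher, 7.49%, and 819 lower, 4.49%; 12% in all). Mitosis genes separated it from Vincristine: 24 of 31 were lower under Blebbistatin and 0 higher, with a list median of -0.27, and 10 of 14 cytokinesis genes were lower. Of 18 tubulin genes, 9 were higher than in Vincristine and 0 lower, with a median of 0.17. Cholesterol genes separated it from Monastrol, with 16 of 25 lower, 0 higher and a median of -0.36. DNA replication genes were higher than in Monastrol for 18 of 36 and lower for 2. IFIT2 exceeded Monastrol by 0.48 ± 0.12 and Vincristine by 0.93 ± 0.10, and CXCL8 by 0.44 ± 0.11 and 0.73 ± 0.09, in means over doses that differ in both genes. Monastrol averaged 7.43 ± 0.05 (SD, n = 3) for IFIT2 and 8.13 ± 0.09 for CXCL8, between Blebbistatin 100 uM (8.84 and 9.43) and 10 uM (6.98 and 7.71). Vincristine averaged 6.97 and 6.99 for IFIT2 and 7.82 and 7.86 for CXCL8 at its 2 concentrations, also below the mean of Blebbistatin 100 uM, and for CXCL8 above that of 10 uM. The genes named by the largest differences from both were weakly measured rises (TUBB8, ADH6, EDDM3A, DSCR8 and GPCRLTM7, by 0.76 to 0.95) and the falls HSD17B7P2, DNHD1, HTR2B, PJVK and APOLD1. APOLD1, an apolipoprotein L domain gene, differed by -1.15 from Monastrol and by -0.32 from Vincristine.

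Arrays of 12 and 24 h gave a second look with other samples. All 6 Blebbistatin arrays of 12 h and 4 of 8 DMSO arrays had low signal (an upper quartile under 8, or a 3' to 5' difference of ACTB above 2), as did 10 uM replicate 3 and DMSO replicate 7 of 24 h. The median standard error of the pooled comparison came to 0.0788 in the arrays of 6 h, and to 0.239 and 0.22 in those of 12 and 24 h. The pooled comparison called 540 genes at 12 h (259 higher, 1.42%, and 281 lower, 1.54%; 2.96% in all) with 96 to 1700 when any 1 array was left out and 0 with low-signal arrays alone, so the 12 h calls cannot be told apart from array signal. At 12 h 651 genes were called for 100 uM (319 higher, 1.75%, and 332 lower, 1.82%; 3.57% in all), 72 for 10 uM (54 higher, 0.296%, and 18 lower, 0.0987%; 0.395% in all) and 21 between doses (12 higher, 0.0658%, and 9 lower, 0.0493%; 0.115% in all). The pooled comparison called 6 at 24 h (5 higher, 0.0274%, and 1 lower, 0.00548%; 0.0329% in all), and 2575 with low-signal arrays left out. Those 6 were 1 without 100 uM replicate 2 or DMSO replicate 7 and 2 without 100 uM replicate 3. Of the 687 genes that rose at 6 h, 547 (79.6%) were above 0 at 12 h and 566 (82.4%) at 24 h, against 48.4% and 48.3% of all genes. Among rises above the median level these shares were 132 of 243 (54.3%) and 150 of 243 (61.7%), and among those below it 415 (93.5%) and 416 (93.7%) of 444. Of the 376 falls, 337 (89.6%) and 322 (85.6%) were below 0, against 51.6% and 51.7% of all genes. Among falls above the median level these were 287 (96.3%) and 258 (86.6%) of 298. Among those below it they were 50 (64.1%) and 64 (82.1%) of 78. The shares thus differed with level, most of all at 12 h, where signal was low. The bearing of signal on them was not tested.

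IFIT2 was called at 24 h as well. At 100 uM it stood at 6.73 to 7.04 against 4.09 to 5.19 in DMSO and 4.10 to 4.66 at 10 uM, a rise of 2.18 ± 0.27 (adjusted p = 2.61e-07) and a dose difference of 2.47 ± 0.33 (adjusted p = 2.11e-06), the 1 gene called between doses at 24 h (0.00548%). It was 1 of 9 genes called at 24 h for 100 uM (6 higher, 0.0329%, and 3 lower, 0.0164%; 0.0493% in all), and those 9 became 1 without any 1 of the 3 treated arrays and 5 without DMSO replicate 6 or 7. Of the 30 genes higher at 100 uM than at 10 uM at 6 h, 25 were so at 24 h and 23 at 12 h, against 50.4% and 48.0% of all genes. Against DMSO at 24 h, 26 of the 30 were above 0 at 100 uM, against 48.1% of all genes, and 1 was called. Without the low-signal arrays 13 were called higher (43.3%, against 5.68% of all genes) and 1 lower. The genes named here at 24 h were picked from the 34 after their values were seen. IFIT3 stood at 6.29 to 6.64 against 4.92 to 5.78 in DMSO (1.14 ± 0.27, adjusted p = 0.0921, and 1.18 with adjusted p = 3.24e-06 without the low-signal arrays). STAT4 stood at 9.26 to 9.39 against 8.54 to 8.72 (0.70 ± 0.34, and 0.70 with adjusted p = 6.92e-15 without them).

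Several genes called at 6 h did not pass the test over all arrays of 24 h. CXCL8 at 100 uM read 6.47 to 6.79 against 5.32 to 6.86 in DMSO (0.41 ± 0.30, and 0.28 with adjusted p = 0.245 without low-signal arrays), and FOS 8.51 to 8.78 against 8.22 to 8.86 (0.15 ± 0.31). NR4A2 was on the other side of DMSO, by -0.47 ± 0.39, and by -0.40 without the low-signal arrays (adjusted p = 0.00353). For CDT1 the pooled change at 24 h was -0.87 ± 0.24 (adjusted p = 0.222), and -0.76 without low-signal arrays (adjusted p = 5.43e-12), where at 6 h it was 0.23. The test of 24 h minus 6 h gave CDT1 -1.10 ± 0.26 (adjusted p = 0.233), and -0.99 without those arrays (adjusted p = 1.12e-13). Over all arrays that test called 0 genes by limma, and 352 had p under 0.05 before adjustment; it called 659 once low-signal arrays were left out. CDT1 too was picked for 24 h after its values were seen.

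**Figure D5:**
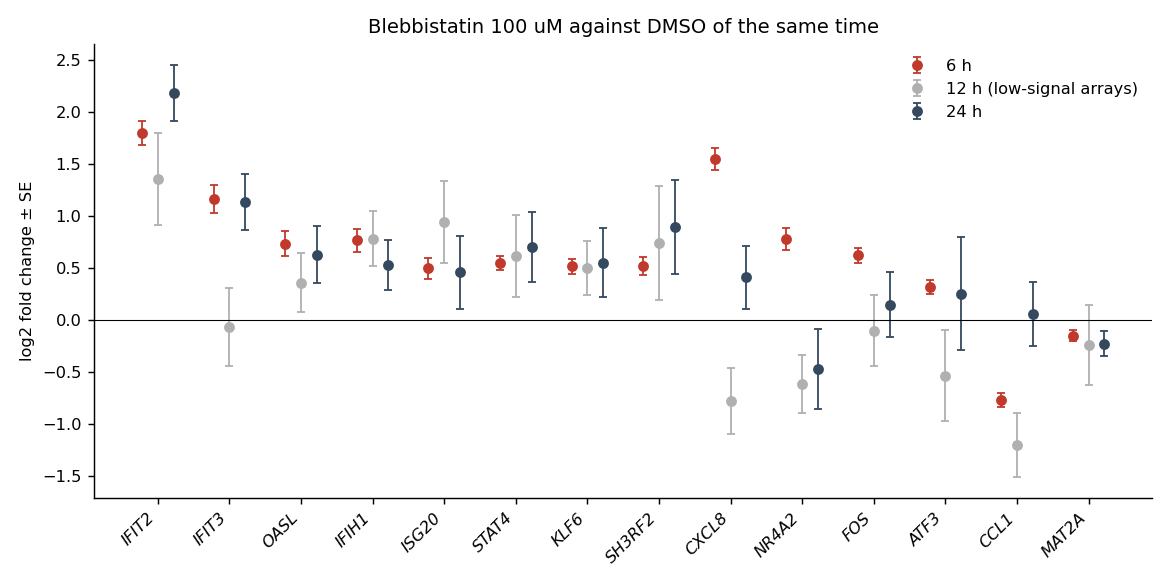
Points give the log2 fold change ± SE of Blebbistatin 100 uM against DMSO of the same time for 14 genes, in red at 6 h, grey at 12 h (low-signal arrays) and dark blue at 24 h. IFIT2 is at 1.80 at 6 h and 2.18 at 24 h, while CXCL8 goes from 1.55 to 0.41.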

How the data were processed

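The values analysed were log2 intensities for 49386 probe sets, deposited by the authors as a series matrix and made with RMA, per the submitters' processing notes; the version is not given in the sources used here. RMA corrects background, normalizes quantiles and summarises each probe set, so small changes near background are compressed, and detection calls were not used. Controls (93) and probe sets with several genes (1327) or none listed (2713) were left out. limma 3.58.1 in R 4.3.3 fitted a mean per group over 94 arrays, and moderated variances with eBayes (trend along the mean level); the fit was tested on simulated data. The members, the 26 gene lists, comparisons and alternatives were chosen with earlier results of these data known. Named genes were the 12 largest rises and falls without overlap, the 6 largest dose differences each way, up to 4 called members of a list, nonmuscle heavy chains, the 5 largest differences from Monastrol and Vincristine and at 12 and 24 h; other members of the lists and of the 34 were added by role. Other settings tried were a repeat of quantile normalization, the 40% lowest genes left out, the mean of all probe sets, only the arrays compared, no variance trend, the replicate number as a block, each array left out, low-signal arrays left out and, added after seeing the data, only genes above the median level. Figures used matplotlib 3.10.9.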

Additional observations from a re-analysis of the deposited data

Results flagged for a closer look

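Of 60 genes looked at, 1 had an array far from the others of its group. In DMSO at 6 h, the highest array of ADGRE2 read 8.39 and the next 8.15, a gap of 0.686 of the group's range (the limit for 8 arrays is 0.526). Chance sets apart about 1 in 20 groups. All 6 Blebbistatin arrays of ADGRE2, at 7.55 to 7.98, lay below the lowest DMSO array, 8.04.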

How the results depend on the processing

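Named genes kept direction and call in 1191 alternative fits other than leaving out an array; 59 gained a call, 182 lost it and 8 turned, all 8 in the pooled comparison with the mean of all probe sets: MYH10 -0.13, MYH9 -0.0511, CNN2 -0.0195, ITGB1 -0.10, CANX -0.0046, TNFRSF10B -0.0664, TNFAIP2 -0.0787 and INPP5D -0.0596. Causes were not tested. Leaving out the 40% lowest genes called 611 pooled, 150 at 10 uM, 55 between doses, 1044 against Vincristine, 311 at 12 h pooled, 343 at 12 h for 100 uM and 10 at 24 h. The mean of all probe sets gave 2028 pooled (809 higher, 1219 lower), 1331 at 10 uM, 57 between doses, 13 at 24 h and 4 for 24 h minus 6 h. Of the pooled calls, 675 of 820 after quantile normalization again, 689 of 2028 with the mean of all probe sets and 720 of 835 with only the arrays compared were shared with the 1063 reported. Genes above the median level alone gave 541 pooled (240 higher, 301 lower), 91 at 10 uM and 813 against Vincristine. Only the arrays compared gave 26 at 10 uM, 1397 against Vincristine, 51 and 254 at 12 h (pooled, 100 uM), 72 and 798 at 24 h and 139 for 24 h minus 6 h. Quantile normalization again gave 283 at 10 uM, 336 at 12 h pooled, 86 at 24 h pooled (44 higher, 42 lower, against 5 and 1), 46 at 24 h for 100 uM (25 and 21, against 6 and 3) and 8 for 24 h minus 6 h. Low-signal arrays alone gave 0 and 7 at 12 h; leaving them out could give no value there, and gave 2575, 2583 and 659 at 24 h pooled, 100 uM and 24 h minus 6 h.

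With the replicate number as a replicate block, 25 genes were called pooled, 114 at 100 uM, 0 at 10 uM and 34 between doses, and 0, 71, 0 and 1 at 12 h pooled, 12 h for 100 uM, 24 h pooled and 24 h for 100 uM. Same-numbered arrays (9 pairs) correlated at -0.281 to 0.277 and others (18 pairs) at -0.315 to 0.235. With so few arrays these overlapping ranges cannot decide whether the numbers pair the arrays. At each time the numbers 4 to 8 occur in DMSO alone, so with the block the comparisons with DMSO rest on DMSO replicates 1 to 3. How much of the drop in calls goes with the smaller control group was not tested. Leaving out 1 array gave 545 to 1905 pooled, 195 to 716 at 100 uM, 31 to 1196 at 10 uM, 19 to 57 between doses, 3117 to 4625 for medium, 1888 to 3140 against Monastrol, 1596 to 2232 against Vincristine, 96 to 1700 and 100 to 2079 at 12 h, 1 to 8 and 1 to 8 at 24 h and 0 to 0 for 24 h minus 6 h. The signal over background was not measured, which limits what can be read from low genes.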

Other observations

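The pooled comparison at 24 h called 5 genes higher and 1 lower. TRIM22, an antiviral ligase and p53 target, stood at 10.54 to 11.21 over the Blebbistatin arrays and 9.39 to 9.93 in DMSO (1.21 ± 0.24, adjusted p = 0.0124). NECTIN4 changed by 1.21 ± 0.25, the cadherin CELSR2 by 0.71 ± 0.14, the cytidine deaminase APOBEC3G by 0.70 ± 0.14 and SLC17A3 by 0.82 ± 0.17. TICRR, which starts replication at licensed origins, changed by -1.01 ± 0.18 (adjusted p = 0.00385). All 6 kept their calls without the low-signal arrays, and at 6 h SLC17A3 alone of them had a pooled change above 0.5, at 0.58.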
